A study of Mus musculus with 12 samples.

Results

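Before a secreted or membrane protein can leave the cell, it has to enter the endoplasmic reticulum (ER), be trimmed, receive its sugars and be packed into transport vesicles. The 44 genes described here encode the machines of these steps in 5 complexes: 7 genes of signal recognition, 11 of the translocon and its partners, 5 of the signal peptidase, 10 of the oligosaccharyltransferase and 11 of the COPII coat. They were chosen by name, with earlier results of these data known, and all 44 were found among the 24078 entries of the table of transcript levels. Levels are given as RPKM, which divides the reads of a gene by its length and by the size of its library. This is meant to make genes comparable with each other. The lengths used for it are not known here, and an error in them would recur in every animal, so orders between genes carry that limit.

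The RNA came from pancreatic islets of 12 male mice aged 5 to 6 months, with 1 library for each animal and 4 animals for each genotype. WT mice carried both intact copies of Wfs1, Wfs1HZ mice carried 1 copy of the Wfs1tm1Koks allele and Wfs1KO mice carried this allele in both copies. In the Wfs1tm1Koks allele a LacZ cassette takes the place of most of exon 8, and a truncated fusion protein with the N-terminal part of wolframin is still expressed. The allele is carried in the germline and is not restricted to islets. All mice were F2 hybrids of 129S6/SvEvTac and C57BL/6. Islets were released from the pancreas by collagenase, picked by hand and kept overnight in medium with high glucose before RNA was extracted. Wfs1 encodes wolframin, a protein of the ER membrane, and its loss causes diabetes in people with Wolfram syndrome.

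As background, a signal peptide that emerges from the ribosome is bound by the signal recognition particle, which docks at its receptor on the ER. The nascent chain then passes through the Sec61 channel, the signal peptidase cuts off the signal peptide, and the oligosaccharyltransferase attaches a sugar tree to asparagines. Cargo that has folded is gathered by the COPII coat into vesicles bound for the Golgi. Beta cells of the islet send very large amounts of preproinsulin along this route, and acinar cells of the surrounding pancreas do the same with digestive enzymes.

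The targeted gene was checked first. Wfs1 stood at 33.9, 27.4, 24.9 and 28.4 RPKM in WT animals 1 to 4, at 15.0, 4.69, 16.4 and 8.16 RPKM in Wfs1HZ animals 1 to 4 and at 5.08, 6.61, 3.46 and 2.45 RPKM in Wfs1KO animals 1 to 4. Neither mutant genotype overlapped with WT, which follows the labels, while the lowest Wfs1HZ animal lay within the range of the Wfs1KO animals. The log2 fold change of Wfs1KO against WT was -2.76 (SE 0.29, limma FDR 0.040), and that FDR lay between 0.0666 and 0.314 when any 1 of the 8 animals was left out. Reads from the exons that the allele keeps remain part of these values.

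The number of reads that the RPKM are scaled to was estimated at 2191000 to 9576000 per animal. The paper gives larger numbers of reads per sample, and how they relate to this estimate is not known here. By this estimate the members with the fewest reads rested on about 9.49 reads (Sec61g) and 18.3 reads (Sec61b) in their shallowest library. Islet hormone and secretory genes were present in every animal: the 10 endocrine markers summed to 166221 to 260723 RPKM in WT, 149654 to 228024 RPKM in Wfs1HZ and 96854 to 263005 RPKM in Wfs1KO islets. The 14 acinar markers summed to 55037 to 123649 RPKM in WT, 9389 to 313468 RPKM in Wfs1HZ and 9297 to 286952 RPKM in Wfs1KO islets, with none of them at 0 in any animal. Acinar RNA was therefore a large and uneven share of these libraries, from 1.77% to 43.3% of all RPKM. Ductal markers summed to 658 to 1385, 437 to 1389 and 195 to 1927 RPKM in WT, Wfs1HZ and Wfs1KO, immune markers to 60.2 to 233, 43.7 to 114 and 28.2 to 176 RPKM, and endothelial markers to 18.4 to 48.7, 19.1 to 91.1 and 53.3 to 63.0 RPKM. Stromal markers summed to 18.6 to 56.9, 12.3 to 357 and 56.6 to 132 RPKM, and plasma cell markers to 3.47 to 9.41, 5.85 to 13.9 and 2.57 to 9.93 RPKM. In bulk islets fewer cells of a type and less RNA per cell cannot be told apart.

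All 44 members were detected in every animal, the lowest value being 1.75 RPKM for Sec61g in WT animal 3. The means of the members over the 12 animals ran from 5.56 RPKM for Sec61g to 115 RPKM for Spcs3, with a median of 44.8 RPKM. By complex, the median of the means was 42.8 RPKM for signal recognition, 51.0 RPKM for the translocon, 53.6 RPKM for the signal peptidase, 60.1 RPKM for the oligosaccharyltransferase and 28.1 RPKM for COPII. The COPII genes thus had the lowest median of the 5 complexes, although the small GTPases Sar1b (109 RPKM) and Sar1a (89.3 RPKM) were among the highest members.

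The signal recognition genes comprise particle proteins and the receptor on the ER. The receptor alpha subunit Srpr had the highest mean level of the 7 (73.0 RPKM), and its membrane anchor Srprb the lowest (16.4 RPKM). The others were Srp14 (67.8 RPKM) and Srp9 (40.5 RPKM), whose proteins pair to pause the ribosome, Srp68 (51.6 RPKM) and Srp72 (42.8 RPKM), which form another pair on the particle RNA, and Srp19 (26.0 RPKM), which helps to assemble it. Srp9 exceeded Srp19, and Srp19 exceeded Srprb, in 12 of 12 animals, whereas Srp72 exceeded Srp9 in only 8 of 12 and Srpr exceeded Srp14 in 9 of 12.

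In the translocon, Sec61a1 encodes the channel itself and had a mean of 59.9 RPKM. Its paralog Sec61a2 reached 11.9 RPKM, and the small channel subunits Sec61b and Sec61g had 32.6 and 5.56 RPKM. Sec62 (51.0 RPKM) and Sec63 (38.8 RPKM), which help chains that arrive late or insert slowly, came in this order in 11 of 12 animals, whereas Sec63 was above the TRAP subunit gene Ssr1 in only 7 of 12. The TRAP complex, which assists insertion of many signal peptides, includes the most abundant gene of this group, Ssr3 (111 RPKM), followed by Ssr2 (81.8 RPKM), Ssr4 (58.3 RPKM) and Ssr1 (36.9 RPKM). Tram1, a membrane protein beside the channel, had 77.5 RPKM.

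Signal peptidase has the catalytic subunits Sec11a (71.9 RPKM) and Sec11c (53.6 RPKM) and the partners Spcs1 (39.1 RPKM), Spcs2 (44.2 RPKM) and Spcs3 (115 RPKM). Spcs3 was above Sec11a in 11 of 12 animals, while Spcs2 and Spcs1 could not be ordered, with Spcs2 higher in 6 of 12 animals. Among the oligosaccharyltransferase genes, Ostc (109.9 RPKM) and Krtcap2 (83.0 RPKM), accessory subunits of the form built on Stt3a, came first. The subunits shared by both forms were Rpn2 (76.0 RPKM), Rpn1 (62.1 RPKM), Ddost (58.1 RPKM) and Dad1 (28.2 RPKM). The catalytic subunit Stt3a had 72.2 RPKM and its alternative Stt3b 25.9 RPKM, and the oxidoreductase subunits of the Stt3b form, Magt1 and Tusc3, had 45.4 and 26.4 RPKM. From Krtcap2 through Rpn2, Stt3a and Rpn1 to Ddost, each gene exceeded the next in only 5 to 7 of 12 animals, so neighbours in this order did not differ beyond their spread.

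COPII assembly starts when Preb (15.9 RPKM), the exchange factor also known as Sec12, loads the Sar1 proteins. The inner coat is made of Sec23b (22.0 RPKM) or Sec23a (9.97 RPKM) with a cargo-binding Sec24 protein, for which Sec24c (35.6 RPKM) was the highest gene, followed by Sec24b (28.1 RPKM), Sec24d (18.1 RPKM) and Sec24a (14.2 RPKM). The outer coat genes Sec31a and Sec13 had 58.8 and 28.2 RPKM.

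Several members are paralogs that serve the same step, and their RPKM ratio was taken within each animal. Sec61a1 exceeded Sec61a2 in 12 of 12 animals, by 1.88 to 13.4 times, and Stt3a exceeded Stt3b in 12 of 12 animals, by 1.52 to 4.28 times. Magt1 exceeded Tusc3 in 12 of 12 animals (1.05 to 2.90 times), Sec24c exceeded Sec24a and Sec24d in 12 of 12 animals, and Sec24b exceeded Sec24d in 12 of 12 animals. Sec23b exceeded Sec23a in 11 of 12 animals, Sec11a exceeded Sec11c in 11 of 12 animals, and Sar1b exceeded Sar1a in 10 of 12 animals. By genotype, the Stt3a to Stt3b ratio was 2.97 ± 0.282 in WT, 2.14 ± 0.342 in Wfs1HZ and 3.37 ± 1.28 in Wfs1KO islets (mean ± SD, n = 4 animals each), and the Magt1 to Tusc3 ratio was 1.68 ± 0.518, 1.42 ± 0.339 and 2.19 ± 0.719. For Stt3a to Stt3b the WT animals, from 2.78 to 3.39, lay above the Wfs1HZ animals, from 1.86 to 2.59, and the Wfs1KO animals spanned both, from 1.52 to 4.28. For Magt1 to Tusc3 the 3 genotypes overlapped, and neither ratio was tested. No rule set beforehand led to the choice of these pairs for values by genotype. Among all 11 pairs of paralogs and the 3 comparisons of genotypes, Stt3a to Stt3b in Wfs1HZ against WT was the only case without overlap. With 4 animals for each genotype and that many looks, such a case can arise by chance, so it is not given as a difference between genotypes.

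**Figure D1:**
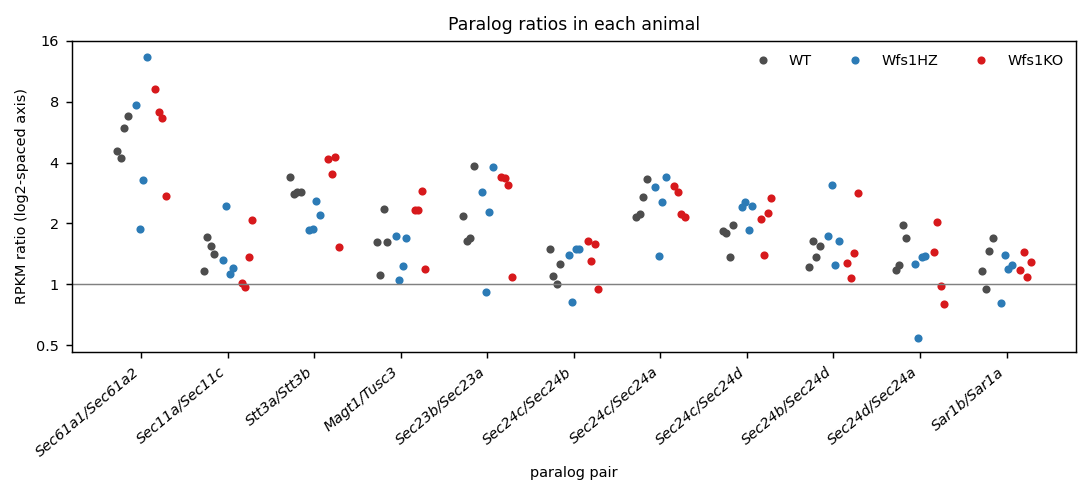
RPKM ratio of 11 pairs of paralogs (x axis) in each of 12 animals, on a y axis spaced in log2 steps, with WT in grey, Wfs1HZ in blue and Wfs1KO in red and a line at a ratio of 1. Sec61a1 over Sec61a2 spreads most widely, from 1.88 to 13.4, and single animals of the mutant genotypes lie at the ends of several pairs.

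Wfs1HZ animal 2 and Wfs1KO animal 4 stood at an end of several pairs. Their Sec23b to Sec23a ratios were 0.917 and 1.09, against 1.64 to 3.86 in the other 10 animals, and their Sec24c to Sec24b ratios were 0.822 and 0.951, against 1.00 to 1.65. The Sec61a1 to Sec61a2 ratios of these animals were 1.88 and 2.72, below the 3.27 to 13.4 of the other 10, and their Sec11a to Sec11c ratios were 2.45 and 2.08, above the 0.973 to 1.72 of the other 10. Relative to their partners in these pairs, Sec23a, Sec24b and Sec61a2 thus took a larger share there, and Sec11c a smaller one. Sec24d was also lower relative to Sec24c, with Sec24c to Sec24d ratios of 2.54 and 2.68 against 1.37 to 2.44 in the other 10. These animals also had the lowest sums of acinar markers, 9389 and 9297 RPKM, against 55037 to 313468 RPKM in the other 10. They had the lowest ductal sums (437 and 195 RPKM) and immune sums (43.7 and 28.2 RPKM) and the highest stromal sums (357 and 132 RPKM) as well. The part of these cells in the ratios was not tested.

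Promoter sequences were read from RefSeq (GRCm38.p6) for 35 of the 44 members, as the 250 bases before the annotated start. Srp19, Srp68, Sec61a1, Ssr2, Tram1, Spcs3, Sec11c, Tusc3 and Ostc had no entry. Each window was searched on both strands for elements of the unfolded protein response: the UPRE TGACGTGG and its core ACGTG, the ER stress element ERSE (CCAAT and CCACG with 9 bases between them), its variant ERSE-II (ATTGG and CCACG with 1 base between them), and CCACG and CCAAT alone. The short motifs overlap: CCACG lies inside both ERSE and ERSE-II, ACGTG lies inside TGACGTGG, and CCACGT counts for both cores. ACGTG was found in 17 of 35 members (48.6%), against 18.5% of 27025 genes with a promoter in the table and 26.7% of the 5324 genes at the level of the members. CCACG was found in 19 of 35 members (54.3%), against 31.0% of all genes and 48.6% of genes at that level, and CCAAT in 16 of 35 (45.7%), against 37.5% and 39.4%. The full UPRE was found only in the window of Sec24d (2.86% of members), against 0.603% of all genes and 1.01% of genes at that level. Neither ERSE nor ERSE-II was found in a member, against 0.130% and 0.0370% of all genes and 0.15% and 0.0563% of genes at that level. A missing match says only that these letters are not in the window. These matches are descriptions of letters, and binding was not measured.

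The windows of 4 members are shown. Srpr, Ssr3 and Magt1 are among the members described below for their levels in Wfs1KO islets, and Sec24d holds the only UPRE. Rpn1, Spcs2 and Sec61b are described below as well. The windows of Rpn1 and Spcs2 had CCACG at 77 and 246 bases and no ACGTG, and that of Sec61b had neither. A link between these motifs and the levels was not tested. Capitals mark CCACG as well as the UPRE and its core ACGTG, or their reverse complements. Ssr3 (chr3:65392554-65392803, minus strand) has overlapping cores that begin 190 bases before the start, Srpr (chr9:35210953-35211202, plus strand) has CCACG at 233, 173 and 68 bases and ACGTG at 11 bases, and Magt1 (chrX:106011803-106012052, minus strand) has the ACGTG core at 236, 97 and 96 bases. Sec24d (chr3:123267246-123267495, plus strand) has its UPRE at 26 bases.
Ssr3: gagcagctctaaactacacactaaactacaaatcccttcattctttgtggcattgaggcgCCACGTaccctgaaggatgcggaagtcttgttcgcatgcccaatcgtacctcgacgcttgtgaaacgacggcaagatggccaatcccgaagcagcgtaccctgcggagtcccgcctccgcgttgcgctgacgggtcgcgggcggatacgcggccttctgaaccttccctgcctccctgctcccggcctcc
Srpr: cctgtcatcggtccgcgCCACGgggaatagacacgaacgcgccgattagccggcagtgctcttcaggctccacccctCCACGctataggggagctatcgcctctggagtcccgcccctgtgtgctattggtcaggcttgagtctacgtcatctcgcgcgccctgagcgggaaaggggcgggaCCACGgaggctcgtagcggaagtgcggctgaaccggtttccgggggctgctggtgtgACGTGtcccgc
Magt1: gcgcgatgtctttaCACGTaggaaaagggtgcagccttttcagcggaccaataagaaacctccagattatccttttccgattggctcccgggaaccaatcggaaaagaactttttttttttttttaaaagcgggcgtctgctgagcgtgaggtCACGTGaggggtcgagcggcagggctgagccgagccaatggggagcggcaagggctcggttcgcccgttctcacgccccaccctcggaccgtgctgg
Sec24d: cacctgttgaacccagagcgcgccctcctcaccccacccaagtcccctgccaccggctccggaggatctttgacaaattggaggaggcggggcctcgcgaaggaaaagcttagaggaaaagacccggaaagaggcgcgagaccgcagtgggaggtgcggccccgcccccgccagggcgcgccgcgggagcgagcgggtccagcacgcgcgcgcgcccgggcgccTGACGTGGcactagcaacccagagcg

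The animals at the ends were mostly the same ones. Wfs1HZ animal 4 had the lowest value of 25 members and Wfs1HZ animal 2 that of 16 members, whereas the highest value fell in Wfs1KO animal 1 for 20 members and in Wfs1KO animal 2 for 8 members. Wfs1HZ animal 2 was also the highest animal for 3 members. Within WT, animal 1 had the highest mean of the 44 log2 levels (5.63), against 5.16 to 5.19 in the other WT animals. The Wfs1HZ animals spread from 4.67 to 5.37 and the Wfs1KO animals from 5.30 to 5.86 on this scale, so that 2 of 4 Wfs1KO animals lay above the highest WT animal and 3 of 4 above the highest Wfs1HZ animal. The libraries also differed as a whole: the median-of-ratios size factor, computed over the table, was 0.640 for Wfs1HZ animal 4 and 0.803 for Wfs1KO animal 3, against 0.888 to 1.28 in the other 10 animals. After division by these factors the mean of Wfs1HZ animal 4 was 5.31, within the WT range of 5.08 to 5.49, Wfs1HZ animal 2 had the lowest value of 31 members, and 3 of 4 Wfs1KO animals lay above the highest WT animal.

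**Figure D2:**
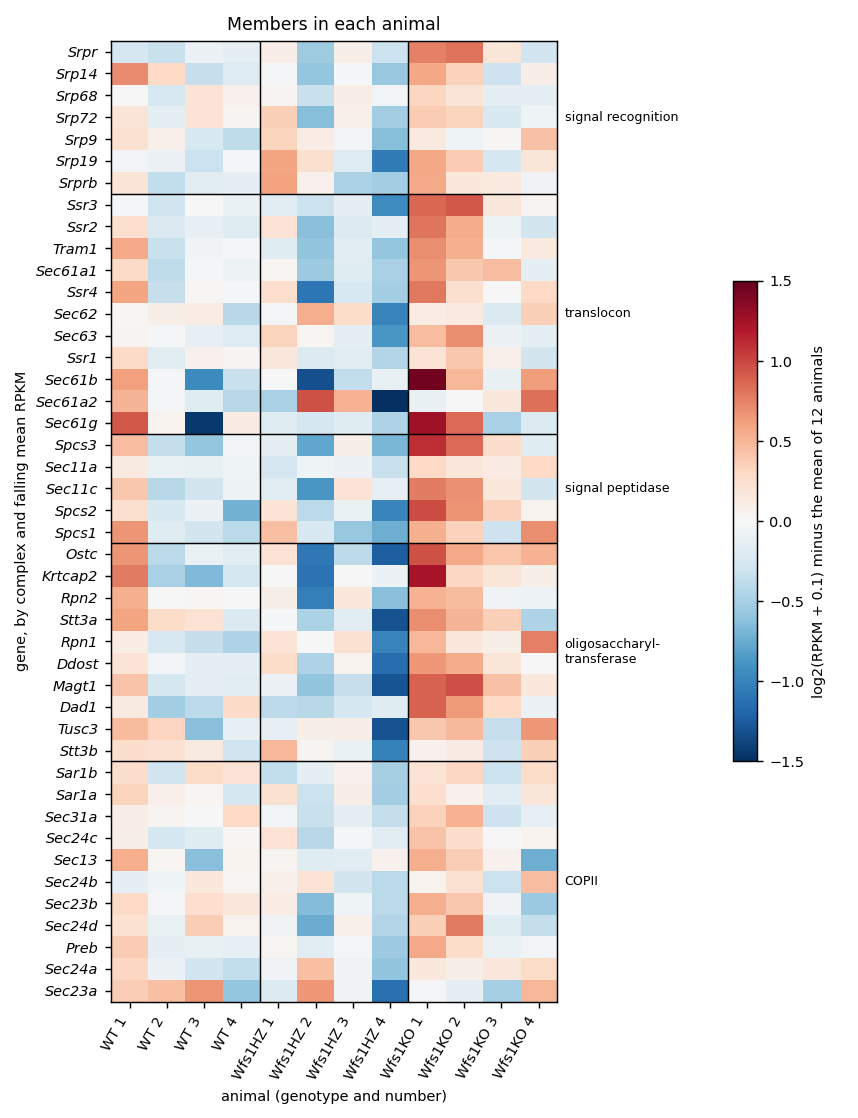
Heat map of the 44 members (y axis, by complex) in the 12 animals (x axis), coloured by log2(RPKM + 0.1) minus the mean of the 12 animals for that gene, red above and blue below the mean. Wfs1KO animals 1 and 2 are red over most rows, and Wfs1HZ animal 4, which holds the lowest value of 25 members, is mostly blue. In COPII as well, the mean log2 levels of Wfs1KO animals 1 and 2 (5.16 and 5.14) lay above the highest WT animal (5.10).

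The comparison of Wfs1KO with WT asks how the levels of these genes differ between islets with no intact Wfs1 and intact ones. In Wfs1KO islets 40 of the 44 members had a higher mean log2 level than in WT, as did 57.4% of all entries and 53.2% of entries at the level of the members. The median log2 fold change of the members was 0.28. No member passed an FDR of 0.05 in limma (0 of 44, lowest FDR 0.835). Among all 21701 entries tested, 0.0138% passed that FDR, the median log2 fold change was 0.07, and it was 0.02 over the 7355 entries at the level of the members. At an unadjusted limma p under 0.05, 5 members (11.4%) were higher in Wfs1KO, namely Ssr3, Spcs2, Rpn1, Magt1 and Ostc, against 3.91% of all entries, and 0 were lower, against 1.74%. For 1 member (2.27%), Ssr3, all Wfs1KO animals lay above all WT animals, against 1.75% of all entries, and for 0 members all lay below, against 0.991%. The share of members without overlap was thus close to that of all entries. Of the 7355 entries at the level of the members, 246 were higher and 132 lower at an unadjusted p under 0.05, and without overlap 115 were higher and 67 lower.

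The differences were unequal between complexes. The median log2 fold change was 0.46 for the oligosaccharyltransferase (9 of 10 genes higher), 0.42 for the signal peptidase (5 of 5), 0.31 for the translocon (11 of 11), 0.21 for signal recognition (7 of 7) and 0.04 for COPII (8 of 11). All 5 members with an unadjusted p under 0.05 belonged to the first 3 of these complexes, which hold 26 of the 44 members. In each of the 5 complexes, COPII included, 2 of 4 Wfs1KO animals had a mean log2 level above the highest WT animal. The COPII median was -0.04 after quantile normalization, -0.03 without Wfs1KO animal 1 and -0.04 without Wfs1KO animal 2, so its sign was not stable, and the other 4 complexes stayed above 0 under each scaling tried. The 4 members with a lower mean in Wfs1KO were Sec23a (-0.26, SE 0.31), Sec23b (-0.09, SE 0.24), Stt3b (-0.02, SE 0.20) and Sec31a (-0.0024, SE 0.21), each within its error of 0.

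**Figure D3:**
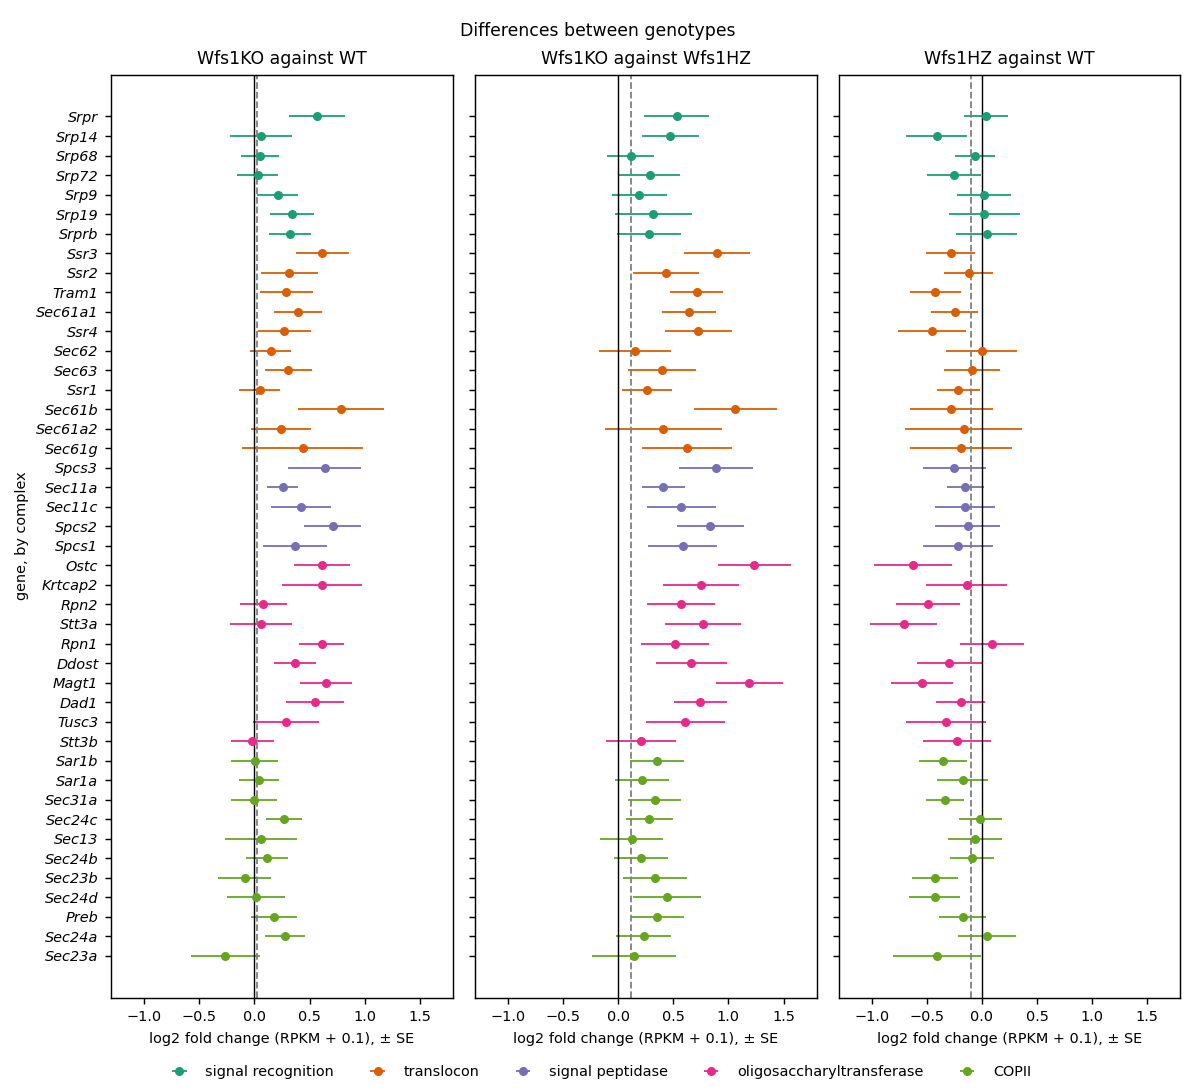
Log2 fold change of each member (x axis, on log2(RPKM + 0.1), bars ± SE from limma) for the 3 comparisons of genotypes, with genes on the y axis coloured by complex, a solid line at 0 and a dashed line at the median of the 7355 entries at the same level. In Wfs1KO against WT the medians run from 0.04 for COPII to 0.46 for the oligosaccharyltransferase, and 44 of 44 members lie to the right of 0 in Wfs1KO against Wfs1HZ.

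Ssr3 (chr3:65379655-65392623, GENCODE M21 on GRCm38), a TRAP subunit, stood at 102, 85.3, 104 and 97.6 RPKM in WT, 94.1, 83.5, 94.3 and 54.4 RPKM in Wfs1HZ and 191, 201, 118 and 108 RPKM in Wfs1KO animals 1 to 4. Wfs1KO animals 1 and 2 were far above the rest, and animals 3 and 4 just above the highest WT animal. The mean was 154 ± 48.1 RPKM in Wfs1KO against 97.3 ± 8.45 RPKM in WT (SD, n = 4 each), and the means of log2 levels differed by 1.53-fold (log2 0.62, SE 0.24, limma p = 0.0296, FDR 0.840, exact permutation p = 0.029, the smallest possible with 4 against 4). Sec61b, a small subunit of the channel, stood at 44.3, 28.5, 14.9 and 22.9 RPKM in WT and 79.0, 40.9, 26.7 and 44.5 RPKM in Wfs1KO islets. Of all members it had the highest log2 fold change, 0.79, but the genotypes overlapped and the error was wide (SE 0.39, limma FDR 0.879, exact permutation p = 0.171).

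The signal peptidase partner Spcs2 (chr7:99837569-99863462) stood at 49.0, 35.3, 39.1 and 25.3 RPKM in WT, 47.5, 31.3, 38.7 and 20.8 RPKM in Wfs1HZ and 81.8, 66.1, 52.6 and 43.0 RPKM in Wfs1KO animals. Only the lowest Wfs1KO animal fell below the highest WT animal, and the 1.63-fold difference in means of log2 levels had a log2 value of 0.71 (SE 0.26, limma p = 0.0228, FDR 0.835, exact permutation p = 0.057). Spcs3, the partner with the highest level, stood at 146, 82.6, 71.0 and 103 RPKM in WT and 228, 191, 127 and 93.4 RPKM in Wfs1KO animals. Wfs1KO animals 3 and 4 lay among the WT values, and the log2 fold change of 0.64 (SE 0.33) had an FDR of 0.879 in limma and an exact permutation p of 0.171.

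Among the oligosaccharyltransferase genes, Rpn1 (chr6:88084482-88105304), a shared subunit that holds the substrate near the active site, stood at 64.2, 50.1, 46.4 and 43.2 RPKM in WT, 68.4, 59.4, 69.7 and 29.7 RPKM in Wfs1HZ and 84.0, 66.4, 63.1 and 100.4 RPKM in Wfs1KO animals. It was the member with the lowest limma p (p = 0.0147, FDR 0.835, exact permutation p = 0.057), with a log2 fold change of 0.61 (SE 0.20). Here Wfs1KO animal 4 was the highest animal, unlike for Ssr3 and Spcs2, where it was the lowest of its genotype. Magt1 (chrX:105968084-106011906), the oxidoreductase subunit, stood at 56.2, 34.7, 38.0 and 37.0 RPKM in WT, 39.3, 27.7, 32.8 and 16.9 RPKM in Wfs1HZ and 77.0, 81.5, 56.7 and 46.4 RPKM in Wfs1KO animals. WT animal 1 stood apart from the other WT animals and reached into the range of Wfs1KO, and the log2 fold change was 0.65 (SE 0.24, limma p = 0.0224, FDR 0.835, exact permutation p = 0.057). The catalytic subunits differed less, with log2 fold changes of 0.06 (SE 0.28) for Stt3a and -0.02 (SE 0.20) for Stt3b.

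In signal recognition, the receptor gene Srpr stood at 59.0, 55.5, 65.9 and 63.8 RPKM in WT and 118, 123, 79.8 and 57.2 RPKM in Wfs1KO animals. Animals 1 to 3 of Wfs1KO lay above all WT animals and animal 4 did not, and the log2 fold change of 0.57 (SE 0.25) had an unadjusted limma p of 0.0502 (FDR 0.879, exact permutation p = 0.114). For Srp19 the values were 24.2, 23.5, 19.9 and 24.4 RPKM in WT and 37.4, 32.4, 20.7 and 28.3 RPKM in Wfs1KO animals, with a log2 fold change of 0.34 (SE 0.20, FDR 0.879).

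COPII showed the smallest differences. Sec24c, a cargo adaptor, stood at 37.4, 29.3, 30.9 and 35.6 RPKM in WT and 47.4, 42.2, 34.9 and 36.3 RPKM in Wfs1KO animals, and Sec24a at 17.3, 13.1, 11.4 and 10.8 and 15.5, 14.8, 15.7 and 16.9 RPKM. These were the COPII genes with the lowest p, and both overlapped between genotypes (log2 fold change 0.27, SE 0.16, and 0.28, SE 0.18, limma FDR 0.882 and 0.903, exact permutation p = 0.143 for each). The outer coat gene Sec31a differed by less than its error (log2 fold change -0.0024, SE 0.21), which leaves room for a difference of about -0.42 to 0.41 (2 SE either way).

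**Figure D4:**
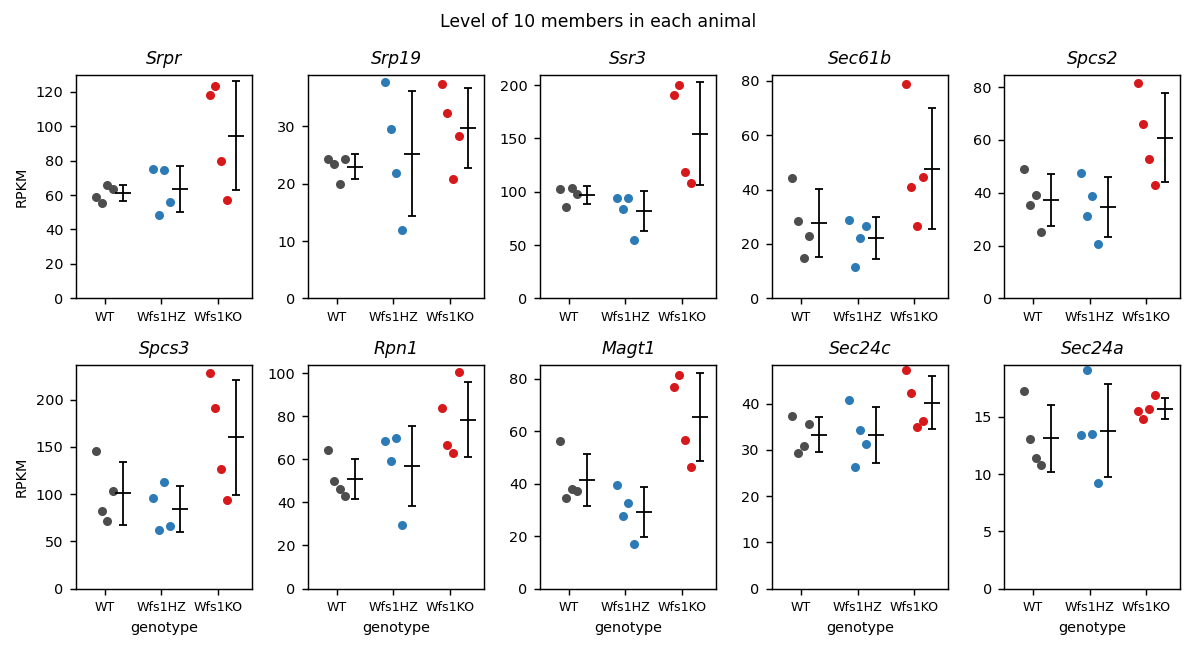
RPKM (y axis, from 0) of 10 members in each animal by genotype (x axis), the 2 members with the lowest limma p for Wfs1KO against WT in each complex, with black bars for the mean ± SD of 4 animals. Ssr3 is the gene whose 4 Wfs1KO animals all lie above the 4 WT animals (108 RPKM and more against 104 RPKM and less).

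The other complexes were also set against COPII inside each animal, where a common scaling of the library cancels. The measure is the mean log2 level of a complex minus the mean log2 level of the 11 COPII genes in the same animal. This measure was chosen after the values had been seen and is given without a test. It restates the differences above with COPII as the reference and is not separate evidence. For the oligosaccharyltransferase the measure was 0.95, 0.70, 0.53 and 0.67 in WT, 0.85, 0.43, 0.76 and 0.31 in Wfs1HZ and 1.15, 0.97, 1.06 and 0.98 in Wfs1KO animals 1 to 4. All 4 Wfs1KO animals lay above all 8 others. For the translocon the values were 0.50, 0.27, 0.09 and 0.29 in WT, 0.38, 0.22, 0.35 and 0.17 in Wfs1HZ and 0.73, 0.58, 0.53 and 0.50 in Wfs1KO animals, and for the signal peptidase 1.11, 0.75, 0.67 and 0.77, 1.00, 0.66, 0.94 and 0.86 and 1.40, 1.24, 1.25 and 1.10. In both of these complexes WT animal 1 alone reached into the Wfs1KO range, and 3 of 4 Wfs1KO animals lay above it. For signal recognition the values were 0.36, 0.38, 0.31 and 0.40 in WT, 0.75, 0.38, 0.45 and 0.39 in Wfs1HZ and 0.63, 0.48, 0.53 and 0.49 in Wfs1KO animals, and Wfs1HZ animal 1 had the highest value.

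**Figure D5:**
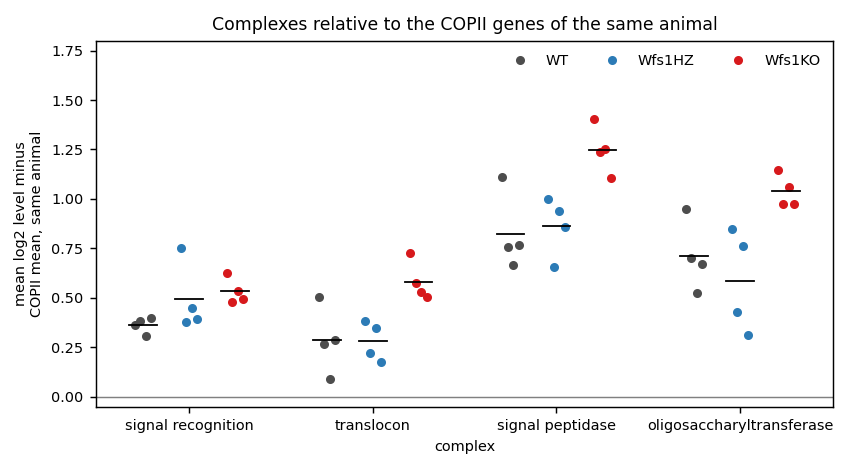
Mean log2(RPKM + 0.1) of 4 complexes minus the COPII mean of the same animal (y axis, log2 units), by complex (x axis), with 1 point per animal, horizontal bars for genotype means and WT in grey, Wfs1HZ in blue and Wfs1KO in red. For the oligosaccharyltransferase the 4 Wfs1KO animals lie between 0.97 and 1.15 and the highest of the other 8 lies at 0.95.

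Exon length, taken from the longest GENCODE M21 transcript of each gene, moved with these differences. Over entries at the level of the members with a known exon length, the median log2 fold change of Wfs1KO against WT was 0.16 for exon lengths under 1500 nt (850 entries), 0.06 for 1500 nt to 3000 nt (2011 entries) and -0.01 for 3000 nt or more (4422 entries). The COPII genes had a median exon length of 4109 nt, against 2927 nt for the signal peptidase, 2938 nt for the translocon, 3124 nt for the oligosaccharyltransferase and 3166 nt for signal recognition. Within the class of 3000 nt or more, the 15 members outside COPII had a median log2 fold change of 0.32 and the 8 COPII members one of 0.07, and within 1500 nt to 3000 nt the medians were 0.29 (13 members) and 0.05 (2 members). The longest transcript need not be the one expressed in islets, so these classes may not match the lengths of the RNA measured. The part of length was not tested further.

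Single animals decided how many members had an unadjusted p under 0.05. That count was 1 without Wfs1KO animal 1, without Wfs1KO animal 2 or without WT animal 2, 2 without WT animal 4, 3 without WT animal 3, and 10 without WT animal 1 or without Wfs1KO animal 4. The number of members with a higher mean in Wfs1KO stayed between 31 and 42 of 44 when single animals were left out, and was 30 after quantile normalization. Markers of other cells differed between the same animals: 5 of 5 endothelial, 5 of 6 stromal, 5 of 6 immune, 4 of 7 ductal, 2 of 3 plasma cell, 4 of 14 acinar and 2 of 10 endocrine markers had a higher mean log2 level in Wfs1KO than in WT, with median log2 fold changes of 0.56, 1.34, 0.11, 0.20, 0.51, -0.22 and -0.42. Their part in the values of the members was not tested.

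Genes that work beside the members were counted from 4 lists. In Wfs1KO against WT, 22 of 26 genes of export sites and cargo receptors had a higher mean (median log2 fold change 0.17, 3 higher with an unadjusted p under 0.05), 18 of 27 genes of N-glycan assembly and trimming (median 0.14, 2 higher), 16 of 25 genes of targeting and insertion (median 0.07, 1 higher) and 4 of 11 genes of the COPI coat (median -0.07, 0 at that p in either direction). Over all entries, as given above, 57.4% had a higher mean and 3.91% were higher at that p, and the 1 of 25 genes of targeting and insertion is near that share. No gene of these lists passed an FDR of 0.05, and none was lower at an unadjusted p under 0.05. The KDEL receptor Kdelr3, which returns escaped ER proteins, had means of 12.0 RPKM in Wfs1KO and 7.45 RPKM in WT (log2 fold change 0.68, SE 0.17, limma FDR 0.835, exact permutation p = 0.029), and Mcfd2, a partner of the cargo receptor Lman1, had 41.8 and 25.1 RPKM (log2 fold change 0.72, SE 0.20, FDR 0.835). Mogs, the glucosidase that makes the first cut in the attached sugar tree, had 15.8 and 8.02 RPKM (log2 fold change 1.02, SE 0.26, FDR 0.835), and Mpdu1, which helps the use of dolichol-linked mannose, had 9.03 and 5.49 RPKM (log2 fold change 0.76, SE 0.27, FDR 0.835). Kdelr3, Mcfd2 and Mogs did not overlap between the genotypes, in contrast to Mpdu1. In the other direction Alg6, a glucosyltransferase of the same list named after its values were seen, had 1.31 RPKM in Wfs1KO and 2.12 RPKM in WT without overlap (log2 fold change -0.69, SE 0.32, FDR 0.879, exact permutation p = 0.029). Ncln, of a translocon-associated complex, had 7.23 and 4.74 RPKM without overlap (log2 fold change 0.58, SE 0.23, FDR 0.842), and Emc6, of the ER membrane complex, had 10.7 and 7.46 RPKM (log2 fold change 0.55, SE 0.33, FDR 0.879). In the COPI coat the lowest p belonged to Copg2, with 7.71 RPKM in Wfs1KO and 11.4 RPKM in WT (log2 fold change -0.62, SE 0.28, FDR 0.879), and to Copz2, with 48.1 and 41.0 RPKM (log2 fold change 0.25, SE 0.17, FDR 0.906). Higher without overlap were 2 of 26 genes of export sites, 1 of 27 of N-glycan assembly and 1 of 25 of targeting. For COPI this count was 0 of 11, and over all entries the share was 1.75%. Lower without overlap was 1 of 27 genes of N-glycan assembly, against 0.991% of all entries. Apart from Alg6, the genes named here were picked by their low p, which favours a lack of overlap.

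The second comparison sets Wfs1KO against Wfs1HZ, and uses the same Wfs1KO animals. All 44 of 44 members had a higher mean log2 level in Wfs1KO, as did 53.5% of all entries and 67.6% of entries at the level of the members, with a median log2 fold change of 0.44 against 0.04 over all entries and 0.12 over entries at the level of the members. No member passed an FDR of 0.05 in limma, and neither did any entry of the table (0%). At an unadjusted p under 0.05, 11 members (25.0%) were higher, against 1.7% of all entries, and for 7 members (15.9%) the animals did not overlap, against 0.926%. The 7 were Ssr3, Tram1, Sec11a, Dad1, Magt1, Ostc and Krtcap2. Of the 7355 entries at the level of the members, 195 were higher at that p and 107 were higher without overlap, which is more often than over all entries. By complex, the median log2 fold change was 0.71 for the oligosaccharyltransferase, 0.63 for the translocon, 0.59 for the signal peptidase, 0.29 for signal recognition and 0.28 for COPII.

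Magt1 had the lowest p, with a mean of 65.4 ± 16.7 RPKM in Wfs1KO and 29.2 ± 9.47 RPKM in Wfs1HZ islets (SD, n = 4 each), from the values given above. Its log2 fold change was 1.19 (SE 0.30, limma p = 0.00265, FDR 1, exact permutation p = 0.029). Ostc (chr3:130695912-130709444), which links the Stt3a form to the translocon, stood at 158, 75.7, 93.5 and 89.8 RPKM in WT, 116, 47.3, 76.4 and 42.5 RPKM in Wfs1HZ and 194, 149, 133 and 144 RPKM in Wfs1KO animals. Wfs1HZ animals 2 and 4 were the lowest by far, and the log2 fold change was 1.24 (SE 0.33, limma p = 0.00369, FDR 1, exact permutation p = 0.029). Dad1, a small shared subunit, stood at 20.6, 20.2, 22.4 and 23.7 RPKM in Wfs1HZ and 49.7, 42.1, 33.2 and 25.3 RPKM in Wfs1KO animals, with a log2 fold change of 0.75 (SE 0.24, limma p = 0.0113, FDR 1, exact permutation p = 0.029).

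Wfs1HZ animals 2 and 4 weighed on this comparison, as they held the lowest value of 16 and 25 members. Leaving them out together, chosen after the data had been seen, was bound to shrink the difference. Animal 2 had the lowest estimate of the reads that the RPKM are scaled to (2191000). It also had the lowest median rank correlation with the other 11 animals (Spearman 0.860, against 0.904 to 0.931). Animal 4 had the highest acinar sum (313468 RPKM) and the lowest size factor (0.640). Without both, 38 of 44 members had a higher mean in Wfs1KO, 3 members had an unadjusted p under 0.05 and the median log2 fold change was 0.21. Then the complex medians were 0.40 for the signal peptidase, 0.34 for the oligosaccharyltransferase, 0.32 for the translocon, 0.14 for COPII and 0.02 for signal recognition.

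The third comparison, Wfs1HZ against WT, uses animals of both earlier ones. In Wfs1HZ islets 38 of 44 members had a lower mean log2 level than in WT, as did 46.8% of all entries and 64.6% of entries at the level of the members, with a median log2 fold change of -0.20, against 0.04 over all entries and -0.10 over entries at the level of the members. No member and no entry (0%) passed an FDR of 0.05 in limma. At an unadjusted p under 0.05, 1 member (2.27%), Stt3a, was lower, against 1.27% of all entries. For 1 member (2.27%), Sec31a, all Wfs1HZ animals lay below all WT animals, against 1.08%. These shares were near those of all entries. Of the 7355 entries at the level of the members, 162 were lower at that p and 141 were lower without overlap.

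The catalytic subunit gene Stt3a (chr9:36729344-36767679) stood at 102, 82.1, 78.6 and 58.4 RPKM in WT, 66.3, 48.7, 60.5 and 27.4 RPKM in Wfs1HZ and 109, 96.8, 87.0 and 49.2 RPKM in Wfs1KO animals, with a log2 fold change of Wfs1HZ against WT of -0.71 (SE 0.30, limma p = 0.0403, FDR 1, exact permutation p = 0.086). Sec31a (chr5:100361649-100416234) stood at 61.9, 59.6, 57.9 and 71.1 RPKM in WT and 56.1, 45.8, 52.0 and 45.1 RPKM in Wfs1HZ animals, which did not overlap (log2 fold change -0.33, SE 0.17, limma p = 0.0802, FDR 1, exact permutation p = 0.029). Sec23b, of the inner coat, stood at 26.2, 21.0, 25.4 and 24.0 and 23.1, 13.6, 20.4 and 16.2 RPKM in these genotypes (log2 fold change -0.42, SE 0.21, limma p = 0.0734, FDR 1, exact permutation p = 0.057). Without Wfs1HZ animals 2 and 4, 23 of 44 members had a lower mean in Wfs1HZ, the median log2 fold change was -0.0061, and the values of Stt3a, Sec31a and Sec23b were -0.31, -0.21 and -0.15. These animals held the lowest value of 16 and 25 members and were left out after the data had been seen. The difference was therefore bound to shrink without them.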

How the data were processed

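Islet RNA of 12 male mice, 4 each of WT, Wfs1HZ and Wfs1KO, was sequenced with 1 library per animal. The authors made cDNA from 10 ng of total RNA, read fragments from both ends (75 bp and 35 bp) on a SOLiD instrument and mapped reads to mm10 with LifeScope. The authors deposited RPKM values with 2 decimals and no log transformation. The tool that computed RPKM is not given in the sources used here. Groups and replicate numbers came from the sample labels.

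The members and lists were chosen with earlier results of these data known. Levels were analysed as log2(RPKM + 0.1). Each pair of genotypes was fitted alone in limma 3.58.1 under R 4.3.3, letting the prior variance follow the mean level, over 21701 entries with a mean of at least 0.1 RPKM, and p-values were adjusted by Benjamini-Hochberg (FDR) over all of them. The study's test on counts was not possible, since RPKM are not counts. Fold changes on this scale understate changes of low genes. For named genes an exact permutation test, two-sided, was run on the mean log2 levels (smallest p 0.029). A list was described by its counts and median, with no list test. Genes with statistics are, per complex, the 2 members with the lowest limma p for Wfs1KO against WT, the 3 members with the lowest p in each other comparison, any member with an FDR under 0.2, the 2 genes with the lowest p in each pathway list, and Wfs1. Other genes were named after their values were seen.

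Depth was estimated from RNA genes under 200 nt, whose low RPKM are multiples of 1 read: 96.0% to 100.0% of their values were within 0.05 of whole reads. Approximate reads use the exon length of the longest GENCODE M21 transcript of a gene. They are too high where RPKM was computed over a shorter length. In the shallowest library 3 reads on 2 kb are 0.685 RPKM, which covers counting error only. List genes were matched by symbol or RefSeq synonym, and Srp54b, Camlg and Emc1 were not matched. Simulated data tested the procedure in 5 runs on 21701 genes (Wfs1KO against WT). In each run 200 genes were changed by a log2 value of 1 or 2, up or down. A log2 change of 1 gave the right sign in 95.6%, an unadjusted p under 0.05 in 58.6% and an FDR under 0.05 in 3.60%. A log2 change of 2 gave 99.8%, 89.9% and 35.1%. Noise was drawn independently for each gene and animal, so shifts shared by the genes of a library, as seen in these data, were not simulated. Alternatives changed the pseudocount (1 and 0.01), the filter (none, or a mean of 1 RPKM and more), the scaling (median-of-ratios or quantile) and the fit (no variance trend, all 12 animals at once, sample weights, a block for replicate numbers), or dropped single animals. Leaving out 2 Wfs1HZ animals together, the count of members higher or lower under each alternative, the levels after median-of-ratios scaling and the difference from COPII were added after the data had been seen. Other steps ran in Python 3.11.15, where scipy 1.17.1 gave the tests, pandas 2.3.3 with numpy 2.4.6 the tables, and matplotlib 3.10.9 the plots.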

Additional observations from a re-analysis of the deposited data

Results flagged for a closer look

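Of 48 groups of 4 animals examined for the named genes, 1 held an animal far from the other 3: Magt1 stood at 56.2 RPKM in WT animal 1, while the other WT animals lay between 34.7 and 38.0 RPKM. Chance alone flags about 1 in 20 such groups. Without WT animal 1 the log2 fold change of Magt1 in Wfs1KO against WT was 0.80, against 0.65 with all animals.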

How the results depend on the processing

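Of 854 values recomputed under the alternatives, 821 counted as the same. For single genes this meant the same sign and the same side of an FDR of 0.05. For medians it meant a shift within the spread of the animals, and for counts a ratio to the reported count within a set limit. All 294 values of single members counted as the same, but their FDR lay far above 0.05 as reported, so the FDR rule could hardly fail. Of the log2 fold changes of single genes none changed sign, but 12 medians of complexes near 0 did, within that spread: COPII in Wfs1KO against WT (0.04 as reported, -0.04 to -0.03 in 3 alternatives), and in Wfs1HZ against WT signal recognition (0.02 as reported, -0.19 to -0.03 in 6) and the signal peptidase (-0.15 as reported, 0.01 to 0.11 in 3). No member passed an FDR of 0.05 in any of the 3 comparisons under any alternative run. The number of members with an unadjusted p under 0.05 in Wfs1KO against WT, 5 as reported, was 3 without the variance trend, 16 with sample weights, 8 with the replicate block and 1 to 10 with single animals left out. In Wfs1KO against Wfs1HZ, 11 as reported, it was 7 after median-of-ratios scaling, 6 after quantile normalization or without the variance trend, 18 with sample weights, 5 to 13 with single animals left out and 3 without Wfs1HZ animals 2 and 4. In Wfs1HZ against WT the number of lower members, 38 as reported, was 23 without these animals and 29 to 43 with single animals left out. The cause of these shifts was not tested.

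Wfs1 in Wfs1KO against WT kept its direction but missed an FDR of 0.05 with a pseudocount of 1 (log2 fold change -2.51) or 0.01 (-2.79), with no filter (-2.76), after quantile normalization (-2.78), without the variance trend (-2.76), with the replicate block (-2.76) and with single animals left out (-2.98 to -2.52). The replicate numbers did not pair the animals in a steady way. Correlations of deviations of same-numbered animals ran from -0.13 to 0.06 in Wfs1KO against WT, from -0.17 to 0.09 in Wfs1KO against Wfs1HZ and from -0.05 to 0.23 in Wfs1HZ against WT. Those of different-numbered animals reached 0.19, 0.23 and 0.13. In Wfs1HZ against WT, animals numbered 2 (0.23) and 4 (0.21) thus lay above all different-numbered ones, unlike in the other comparisons. Beside Wfs1 and the counts of 5 to 8 and, in Wfs1KO against Wfs1HZ, 11 to 13 members, the replicate block moved none of the results recomputed past a threshold. Depth limits Sec61g and Sec61b most, with about 9.49 and 18.3 reads in their shallowest library.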
